A study of Mus musculus with 2 samples.

Results

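The genes described here are 8 genes of antigen presentation by major histocompatibility complex (MHC) class II, out of 31053 genes listed in each count matrix. They were chosen by name: the surface chain genes H2-Aa, H2-Ab1 and H2-Eb1, the invariant chain gene Cd74, the peptide loading genes H2-DMa and H2-DMb1, the loading inhibitor gene H2-Oa and the transactivator gene Ciita. They were measured in microglia, the resident macrophages of the brain, taken from the hypothalamus of young wild-type mice. Plasma protein labelled with a dye had been injected 20 hours earlier into all animals of both groups, and cells of several mice were pooled. Cells without the dye (plasma-negative) and cells with the dye (plasma-positive) were sorted by fluorescence, and each sort gave 1 droplet library made with the Chromium 3' v3.1 chemistry. The gate that defined microglia and the strain and sex of the mice were not given in the sources used here.

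MHC class II molecules carry peptides of engulfed proteins to the cell surface, where CD4 T cells read them. An alpha and a beta chain (H2-Aa with H2-Ab1, and H2-Eb1 as the beta chain of the second kind of molecule) assemble around the invariant chain Cd74, which blocks the groove until proteases of the endosome remove it. The H2-DM pair then exchanges the remaining invariant chain fragment for a peptide, and H2-DO, of which H2-Oa is the alpha chain, holds H2-DM back. Transcription depends on CIITA, a coactivator that binds no DNA itself and is recruited by the RFX, CREB and NF-Y factors on the X and Y boxes of these promoters. Microglia of the healthy brain are known for little surface MHC class II, which interferon gamma induces.

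In both libraries the surface chains and the loading genes differed in level, whereas a different spread over cells was seen for some of the genes only. H2-DMa and H2-DMb1 together were at 407 and 427 CPM (UMIs of the gene per 1000000 UMIs of the library) in the plasma-negative and plasma-positive library, and H2-Aa, H2-Ab1 and H2-Eb1 together at 10.3 and 13.6 CPM (12.15 CPM without 1 plasma-positive cell described below). A UMI is 1 captured RNA molecule, counted near the 3' end, so gene length was not corrected for. At least 1 H2-DM UMI was found in 66.3% and 73.3% of cells, and at least 1 surface chain UMI in 3.23% and 3.87%. Such shares are lower for genes of lower level, also with an even spread. Cd74 in both libraries, and H2-Aa and H2-Eb1 in the plasma-positive one, were gathered in fewer cells than their level alone would give. In the plasma-negative library H2-Aa and H2-Eb1 had 10 and 9 UMIs, too few to judge their spread. H2-Ab1, with 338 of the 357 surface chain UMIs of the plasma-negative library, was found there in nearly the share of cells that an even spread would give. With so few UMIs per cell, a gene confined to a part of the cells can come near that share too. An even spread of H2-Ab1 is thus not shown. In the plasma-positive library the observed share for H2-Ab1 was 0.826 of the even-spread share. That is below the 1st percentile, 0.848, of genes at 10 CPM or more, and it was 0.877 without the 1 cell described below. H2-Aa and H2-Eb1 lay further below their even-spread shares. With a single library for each sort, differences between the libraries could not be set against a replicate spread and no test was run. Intervals below are at 95% and cover counting error only.

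Cells numbered 9878 (plasma-negative, 34549522 UMIs) and 10390 (plasma-positive, 42006454 UMIs), of which 9860 and 10362 were kept. Kept cells had medians of 3270 and 3753 UMIs. All 11 of 11 microglia markers were found, each in at least 64.4% of the plasma-negative and 68.0% of the plasma-positive cells, so the label microglia fits the kept cells. The 8 markers of border-associated macrophages, some of which express MHC class II, summed to 3.62 and 6.29 CPM, with Lyve1, Cd163, F13a1 and Clec12a at 0 in the plasma-negative and Lyve1 at 0 in the plasma-positive library. The 8 dendritic cell markers summed to 64.0 and 67.9 CPM, of which Batf3 made up 56.9 and 58.5 CPM, and Cd209a was at 0 in both. Of the 5 B cell markers, Cd79b alone was at 48.1 and 48.7 CPM and Ms4a1 and Pax5 were at 0 in both. The 5 monocyte markers summed to 4.43 and 4.31 CPM, with Ly6c2 and Chil3 at 0. No kept cell held 4 or more markers of dendritic cells, B cells or monocytes. Exactly 1 kept cell, in the plasma-positive library, held 4 border-associated macrophage markers, together with 5 of the 11 microglia markers in 1981 UMIs. That cell is referred to below as the border-marker cell, and the surface chain and Cd74 values it moves most are also given without it.

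On the mouse build GRCm38 (GENCODE M21), 6 of the 8 genes lie in the MHC region of chromosome 17, where 9 class II genes span 249.1 kb. They are H2-Oa (17:34092340-34095234, plus strand), H2-DMa (17:34119541-34139101, plus), H2-DMb1 (17:34153072-34160230, plus), H2-Ab1 (17:34257689-34269419, plus), H2-Aa (17:34282744-34287823, minus) and H2-Eb1 (17:34305867-34316674, plus). Cd74 and Ciita (16:10480059-10528418, plus) lie on other chromosomes, and all 8 are annotated as protein-coding. H2-DMa overlaps Brd2 on the other strand, with 3589 and 4078 UMIs of its own, Ciita overlaps Dexi on the other strand, and H2-Oa overlaps the antisense gene BC051537, with 23 and 31 UMIs. Whether the counting used strand was not stated, so reads could have been assigned to either partner. H2-DMb1 also has a near-copy, H2-DMb2, at 5.85 and 6.86 CPM, and the counts of the MHC genes, which are similar in sequence, are uncertain to that extent.

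The promoters are shown because a Y box core precedes genes found in few cells (H2-Aa, H2-Eb1) and genes found in more (H2-DMb1, H2-Oa). That core is common, at 37.4% of all promoters. RefSeq promoter rows (GRCm38.p6) were matched for 8 of 11 class II genes and for 5 of the 8 genes described here. The promoters of H2-Ab1, Cd74 and Ciita were not used here. Each line gives the 150 bases before the RefSeq start, 5′ to 3′ on the gene's strand, with matches to the Y box core ATTGG or the X box core AACNNATG, on either strand, in capitals.
H2-Aa (chr17:34287824-34287973, minus): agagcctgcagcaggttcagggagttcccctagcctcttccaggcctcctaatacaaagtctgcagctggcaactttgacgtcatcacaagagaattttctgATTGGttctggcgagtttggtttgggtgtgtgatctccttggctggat
H2-Eb1 (chr17:34305717-34305866, plus): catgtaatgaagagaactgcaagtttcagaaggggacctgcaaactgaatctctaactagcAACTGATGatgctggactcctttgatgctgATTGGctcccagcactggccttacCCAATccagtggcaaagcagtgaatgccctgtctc
H2-DMb1 (chr17:34153041-34153190, plus): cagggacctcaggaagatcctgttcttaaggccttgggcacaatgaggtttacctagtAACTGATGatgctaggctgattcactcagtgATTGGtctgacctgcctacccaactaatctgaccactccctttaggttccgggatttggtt
H2-Oa (chr17:34092229-34092378, plus): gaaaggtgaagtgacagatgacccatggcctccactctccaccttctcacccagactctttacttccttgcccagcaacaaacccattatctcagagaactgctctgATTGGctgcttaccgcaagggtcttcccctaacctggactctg
The Y box core began 48 bases before the start of H2-Aa, 59 bases before H2-Eb1, 61 bases before H2-DMb1 and 43 bases before H2-Oa, and H2-Eb1 had another match on the opposite strand 35 bases before its start. The X box core began 89 bases before H2-Eb1 and 92 bases before H2-DMb1, and these letters were not found in the windows of H2-Aa and H2-Oa. For H2-DMa, windows at 2 starts inside the gene were matched, and the Y box core was found only at the second, 198 bases before it. The RefSeq gene start of H2-DMa, at 34119693, lies upstream of both and had no window, so nothing is read for its promoter there. Among the other class II genes, H2-Ob, H2-DMb2 and H2-Eb2 held both cores. Of 32851 promoters of 300 bases (250 before to 50 after the start), 37.4% held the Y box core, 8.86% the X box core and 4.01% both. A match is a description of these letters only, and no binding was measured here.

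The surface chains were the least abundant of the genes that were detected in both libraries. H2-Ab1, the beta chain gene of H2-A, gave 338 UMIs among plasma-negative cells (9.79 CPM, 8.77 to 10.9) against 448 among plasma-positive cells (10.7 CPM, 9.71 to 11.7), and these intervals overlapped. H2-Aa, its partner alpha chain gene, had only 10 UMIs (0.290 CPM, 0.139 to 0.533) and 61 UMIs (1.45 CPM, 1.11 to 1.87). H2-Eb1, the beta chain gene of H2-E, had 9 UMIs (0.261 CPM, 0.119 to 0.495) and 61 UMIs (1.45 CPM, 1.11 to 1.87). Both were higher in the plasma-positive library and their intervals did not overlap between the libraries. Without the border-marker cell the plasma-positive levels were 1.07 CPM (0.782 to 1.43) for each of them and 10.00 CPM (9.07 to 11.01) for H2-Ab1, and the intervals of H2-Aa and H2-Eb1 still did not overlap between the libraries. RNA of the beta chain H2-Ab1 was thus present at a level many times that of its alpha chain in each library. GENCODE begins the H2-Ab1 gene 5538 bases upstream of the RefSeq start, and whether UMIs from that stretch were counted for H2-Ab1 was not tested.

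Cd74, whose product also serves as a receptor at the cell surface, gave 1025 plasma-negative UMIs (29.7 CPM, 27.9 to 31.6) against 1577 plasma-positive UMIs (37.6 CPM, 35.7 to 39.5), and the intervals did not overlap. H2-DMa was the most abundant of the 8 genes, with 9163 UMIs (265 CPM, 260 to 271) and 11766 UMIs (280 CPM, 275 to 285). H2-DMb1 had 4893 UMIs (142 CPM, 138 to 146) and 6173 UMIs (147 CPM, 143 to 151). H2-Oa had 1633 UMIs (47.3 CPM, 45.0 to 49.6) and 2067 UMIs (49.2 CPM, 47.1 to 51.4), so the RNA of the inhibitor's alpha chain was more abundant than that of Cd74 and of every surface chain. H2-Ob, the beta chain of the inhibitor, was at 28.7 and 27.8 CPM, and H2-Eb2 had 0 UMIs in both libraries. Ciita had 0 UMIs in the plasma-negative library, where 3 counts would be 0.0869 CPM and the exact upper limit is 0.107 CPM, and 4 UMIs in 3 plasma-positive cells (0.0953 CPM, 0.0260 to 0.244), none of which held a Cd74 UMI. No fold is given for Ciita, because its intervals in the libraries overlapped and its 4 UMIs lie just above the 3 counts that a count of 0 allows. In both libraries the order was H2-DMa, H2-DMb1, H2-Oa, Cd74, H2-Ab1, then H2-Aa with H2-Eb1, and Ciita, and H2-Aa and H2-Eb1 were the only neighbours in this order whose intervals overlapped.

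**Figure D1:**
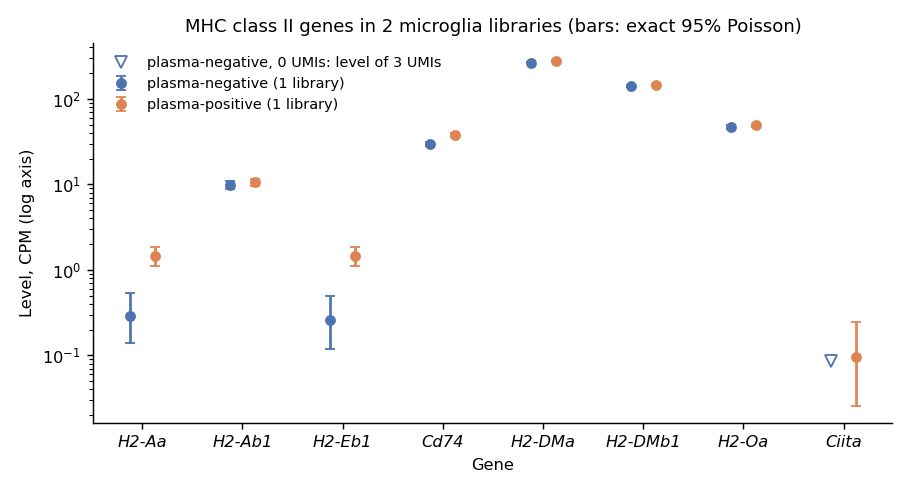
Level of each gene in CPM (log axis) in the plasma-negative and the plasma-positive library, with exact 95% Poisson intervals; the open triangle marks the level that 3 UMIs would give for Ciita, which had 0 UMIs there. H2-DMa (265 and 280 CPM) and H2-DMb1 lie far above H2-Aa and H2-Eb1, which are below 2 CPM in both libraries.

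The share of cells with a UMI depends on depth, so it was set beside the share each gene would reach if its UMIs were spread evenly over all cells in proportion to their depth. A low ratio of observed to even-spread share means that few cells hold many of the UMIs. A ratio near 1 is what an even spread gives. For a gene with few UMIs per cell it stays near 1 unless the gene is confined to few cells, so ratios of genes of unlike level are not directly comparable. Genes at 10 CPM or more had a median ratio of 0.956 (8272 genes, plasma-negative) and 0.958 (8223 genes, plasma-positive), with 1st percentiles of 0.857 and 0.848. H2-DMa was found in 52.4% and 59.7% of cells, with ratios of 0.933 and 0.950. H2-DMb1 was found in 35.9% and 41.4% of cells, with ratios of 0.969 and 0.977, and H2-Oa in 14.0% and 16.7%, with ratios of 0.941 and 0.945. These 3 genes lay within the middle of the distribution of all genes, between its percentiles 21.2 and 79.8. Cd74 was found in 594 cells (6.02%) where an even spread would give 9.73%, a ratio of 0.619, and in 799 cells (7.71%) where an even spread would give 13.8%, a ratio of 0.558. That placed Cd74 at percentile 0.121 and 0.195 of all genes.

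Among the surface chains, H2-Aa was found in 8 and 35 cells, with ratios of 0.801 and 0.576, and H2-Eb1 in 7 and 29 cells, with ratios of 0.778 and 0.477. Both are below the 10 CPM at which the distribution of all genes was taken, and with 10 or 9 UMIs the plasma-negative ratios rest on few molecules. H2-Ab1 was found in 310 cells (3.14%) against 3.35% for an even spread, a ratio of 0.938, in the plasma-negative library. In the plasma-positive library it was found in 360 cells (3.47%) against 4.20%, a ratio of 0.826 at percentile 0.742 of all genes. Without the border-marker cell the plasma-positive ratios were 0.758 for H2-Aa, 0.624 for H2-Eb1, 0.877 for H2-Ab1 and 0.569 for Cd74. No cell type that should lack these genes was at hand, so the share that free RNA in the droplets would give was not measured.

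**Figure D2:**
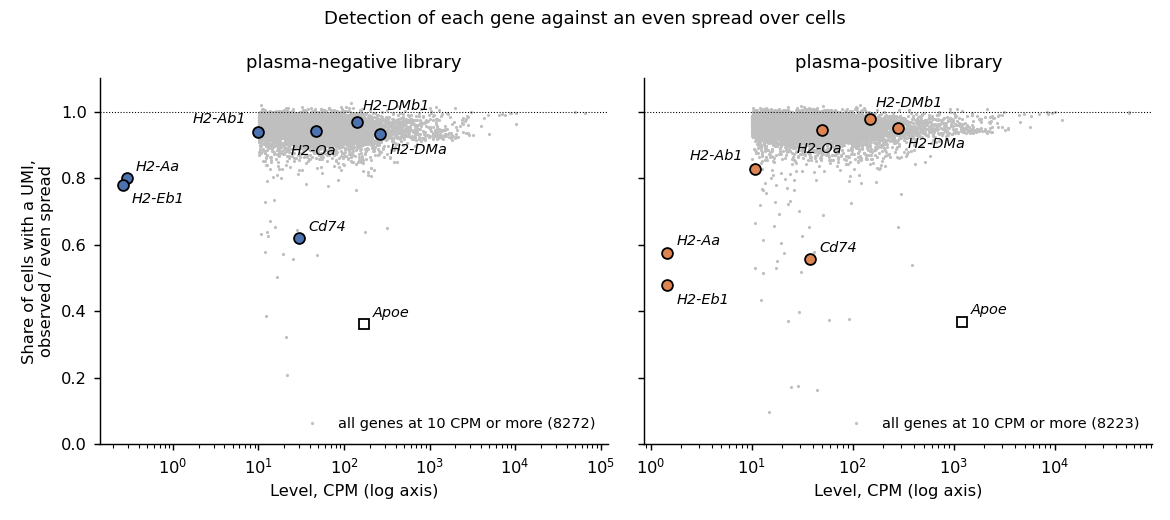
Share of cells with a UMI divided by the share under an even spread, against the level in CPM (log axis), for each library; grey points are all genes at 10 CPM or more, large points are the named genes except Ciita, which is not plotted, and the square is Apoe. H2-DMa, H2-DMb1 and H2-Oa sit within the grey band near 1, whereas Cd74 lies below it at 0.619 and 0.558.

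The highest count in 1 cell also set Cd74 apart from the H2-DM genes. No cell held more than 9 and 11 UMIs of H2-DMa, or 7 and 8 of H2-DMb1. For Cd74 the highest cell held 52 plasma-negative and 44 plasma-positive UMIs, in cells of 13010 and 15244 UMIs. The 1% of cells that held most Cd74 carried 47.2% and 45.4% of its UMIs, against 6.44% and 5.90% for H2-DMa and 14.3% and 12.4% for H2-Oa. For H2-Ab1, whose ratios were nearer 1 than those of Cd74, these shares were 37.6% and 42.9%. Shares of UMIs held by a set number of cells rise as the level of a gene falls, also with an even spread. They do not by themselves show that a gene is gathered in few cells. Of the 61 plasma-positive H2-Aa UMIs, 10 cells held 59.0%, and of the 61 H2-Eb1 UMIs, 10 cells held 68.9%. For H2-Ab1 10 cells held 7.10% and 16.7%. Without the border-marker cell, 10 cells held 46.7% of H2-Aa, 60.0% of H2-Eb1 and 11.7% of H2-Ab1 UMIs in the plasma-positive library.

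Because plasma-positive cells were deeper, the shares were also taken after each cell was thinned to 1000 UMIs, which left 9064 plasma-negative and 9759 plasma-positive cells and left out 796 and 603 shallower ones. At least 1 H2-DM UMI was then found in 32.6% (31.6% to 33.6%) and 35.2% (34.2% to 36.1%) of cells. At least 1 surface chain UMI was found in 0.971% (0.779% to 1.20%) and 1.15% (0.946% to 1.38%), and these intervals overlapped. The shares for Cd74 were 2.25% and 2.62%, for H2-DMa 22.8% and 24.8%, for H2-DMb1 13.3% and 13.9%, for H2-Oa 4.69% and 4.99% and for H2-Ab1 0.927% and 0.994%. H2-Aa was left in 1 and 12 thinned cells and H2-Eb1 in 4 and 8. Thinned to equal depth, the libraries thus differed by a few percentage points in H2-DM and by a few cells in H2-Aa and H2-Eb1.

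Cells with UMIs of at least 2 of the 3 surface chain genes numbered 6 in the plasma-negative library (0.0609% of cells, 0.0223% to 0.132%) and 18 in the plasma-positive library (0.174%, 0.103% to 0.274%). The 6 cells held 7 of 10 H2-Aa and 5 of 9 H2-Eb1 UMIs, and the 18 cells held 39 of 61 H2-Aa and 42 of 61 H2-Eb1 UMIs. They held 9 of 338 (2.66%) and 77 of 448 (17.2%) of the H2-Ab1 UMIs. As H2-Aa and H2-Eb1 were found in so few cells, most cells with H2-Ab1 could not be among them, and nothing is read from that share. A Cd74 UMI was present in 4 of the 6 and 17 of the 18 cells, which together held 8.49% and 13.3% of all Cd74 UMIs but 0.218% and 0.332% of H2-DMa UMIs. These cells held 8 to 11 and 5 to 11 of the 11 microglia markers, and their median depths were 4776 and 5680 UMIs, above the library medians. All 3 surface chain genes were found together in 1 and 5 cells. The border-marker cell, in the plasma-positive library, held 16 H2-Aa, 28 H2-Ab1, 16 H2-Eb1 and 38 Cd74 UMIs, which is 26.2% of all H2-Aa and 26.2% of all H2-Eb1 UMIs of that library. It held 2 UMIs of H2-DMa and 1 of H2-DMb1. The other 17 plasma-positive cells held 23 of the remaining 45 H2-Aa UMIs, 26 of 45 H2-Eb1, 49 of 420 H2-Ab1 and 171 of 1539 Cd74 UMIs, and 8 to 11 microglia markers.

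H2-Ab1 was found in cells with no Cd74 UMI no more often than an even spread would give. Of its UMIs, 300 of 338 plasma-negative (88.8%) and 300 of 448 plasma-positive (67.0%) lay in those cells, which were 94.0% and 92.3% of all cells and held 92.1% and 90.01% of all UMIs. Without the border-marker cell the plasma-positive share was 300 of 420 (71.4%). H2-Aa had 3 of 10 and 15 of 61 UMIs in those cells, and 15 of 45 plasma-positive UMIs without the border-marker cell. A surface chain UMI without any Cd74 UMI was found in 281 and 308 cells, the majority of the 318 and 401 cells with a surface chain UMI. In thinned plasma-positive cells, Cd74 was found in 13.4% (7.33% to 21.8%) of the 97 cells with an H2-Ab1 UMI and in 2.52% (2.21% to 2.85%) of those without, whereas the plasma-negative shares were 3.57% (0.743% to 10.1%) and 2.24% (1.94% to 2.57%), with overlapping intervals. Without the border-marker cell, the plasma-positive share was 12.5% (6.63% to 20.8%) of the 96 cells with an H2-Ab1 UMI. For the 2 H2-DM genes, which encode partners of 1 protein, the shares lay apart beyond their intervals in the plasma-negative library only. H2-DMb1 was in 15.4% (13.8% to 17.0%) of thinned plasma-negative cells with H2-DMa and in 12.7% (11.97% to 13.5%) of those without, and in 14.1% (12.7% to 15.5%) and 13.9% (13.1% to 14.7%) of plasma-positive cells, where the intervals overlapped.

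Cells were then ordered by their Cd74 UMIs. Cells with 0, 1, 2 and 3 or more numbered 9266, 449, 67 and 78 in the plasma-negative and 9563, 553, 118 and 128 in the plasma-positive library. The summed surface chains were at 9.68, 12.7, 24.5 and 37.0 CPM (21.1 to 60.1 in the last class) in the plasma-negative library. In the plasma-positive library they were at 8.63, 14.8, 39.7 and 226 CPM (194 to 262). Without the border-marker cell the last value was 150 CPM (124 to 180), from 118 UMIs. Of these, the cell with most Cd74, 15244 UMIs deep, held 3 of H2-Aa, 15 of H2-Ab1 and 6 of H2-Eb1. Summed H2-DM was at 404, 438, 404 and 522 CPM (457 to 595) along the plasma-negative classes and at 425, 453, 451 and 451 CPM (405 to 500) along the plasma-positive ones.

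Apoe, the apolipoprotein gene whose plasma-positive level was 1190 CPM against 171 CPM, differed along the same classes. It was at 146, 314, 615 and 1024 CPM in the plasma-negative and at 775, 2837, 7084 and 10594 CPM in the plasma-positive library, so it was higher in each successive class of both libraries. The 15 listed type I interferon genes summed to 531, 858, 1742 and 2724 CPM in the plasma-positive classes, but to 316, 408, 346 and 310 CPM in the plasma-negative ones. Median depth also differed along the classes, from 3239 to 4198 and from 3699 to 4944 UMIs, and its part in these values was not tested. Of the cells with 3 or more Cd74 UMIs, 7 of 78 and 38 of 128 also held a surface chain UMI.

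**Figure D3:**
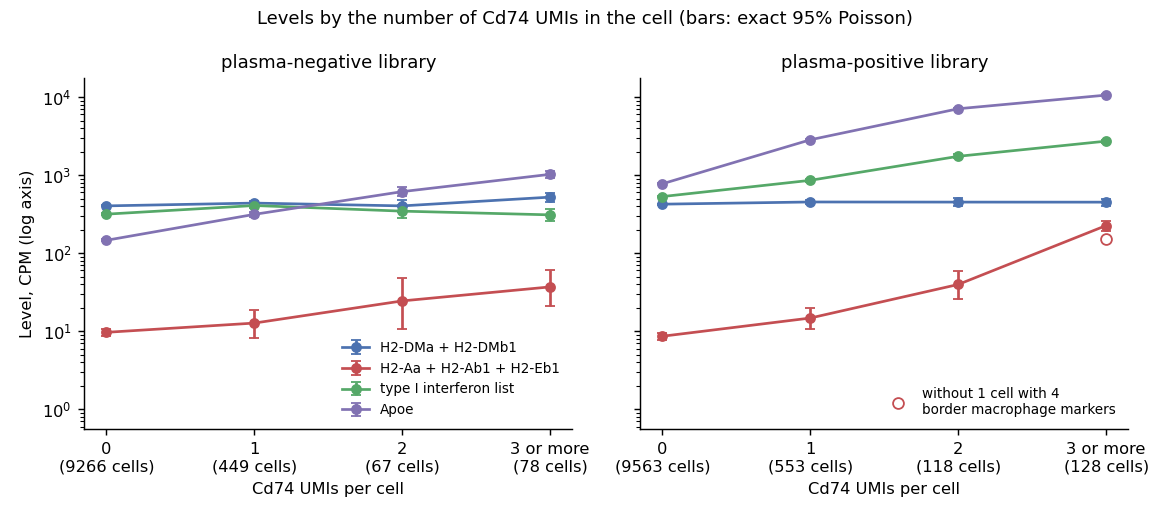
Level in CPM (log axis) of summed H2-DM, summed surface chains, the 15 type I interferon genes and Apoe in cells with 0, 1, 2 and 3 or more Cd74 UMIs, with exact 95% Poisson intervals; the open circle leaves out the border-marker cell. Apoe is higher with more Cd74 UMIs in both panels, up to 1024 and 10594 CPM, while H2-DM stays between 404 and 522 CPM.

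Apoe and the interferon genes were separated by classing thinned cells by whether they held at least 3 UMIs of Apoe, of the interferon list, of both or of neither. These classes are ranges of a count and not cell types. With neither, Cd74 was at 26.0 CPM (22.8 to 29.6) in 8801 plasma-negative and at 24.8 CPM (21.6 to 28.3) in 8765 plasma-positive cells, so the libraries did not differ beyond their intervals in this class, which holds most cells. With Apoe only, Cd74 was at 111 CPM (64.7 to 178) in 153 and at 131 CPM (101 to 168) in 488 cells. With the interferon list only, it was at 46.3 CPM (15.03 to 108) in 108 and at 59.5 CPM (37.3 to 90.0) in 370 cells. Within each of these 3 classes the intervals of the 2 libraries overlapped. Both at once were found in 2 plasma-negative and 136 plasma-positive cells, and in the latter Cd74 was at 316 CPM (229 to 426). Leaving out the border-marker cell, which falls in this class, gave 156 CPM (96.3 to 238).

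The surface chains were at 9.77 CPM (7.82 to 12.1) and 10.7 CPM (8.67 to 13.1) in cells with neither. They were at 39.2 CPM (14.4 to 85.4) and 20.5 CPM (9.83 to 37.7) with Apoe only, and at 18.5 CPM (2.24 to 66.9) and 29.7 CPM (14.8 to 53.2) with the interferon list only. In the 136 plasma-positive cells with both they were at 287 CPM (204 to 392), and without the border-marker cell at 37.0 CPM (12.03 to 86.4), so 1 cell set the level of that class. Summed H2-DM was at 413 CPM (399.9 to 426.9) and 441 CPM (427.4 to 455.3) with neither. It was at 601 CPM (485 to 737) and 535 CPM (472 to 604) with Apoe only. With the interferon list only it was at 306 CPM (210 to 429) and 505 CPM (436 to 583). The intervals of the libraries overlapped with Apoe only, but not with neither or with the interferon list only. In the cells with both it was at 287 CPM (204 to 392) and, without the border-marker cell, at 282 CPM (199 to 386), below its level in plasma-positive cells with neither (427 to 455). H2-Oa stayed between 48.6 and 64.9 CPM over the classes of both libraries, except for the 2 plasma-negative cells with both.

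**Figure D4:**
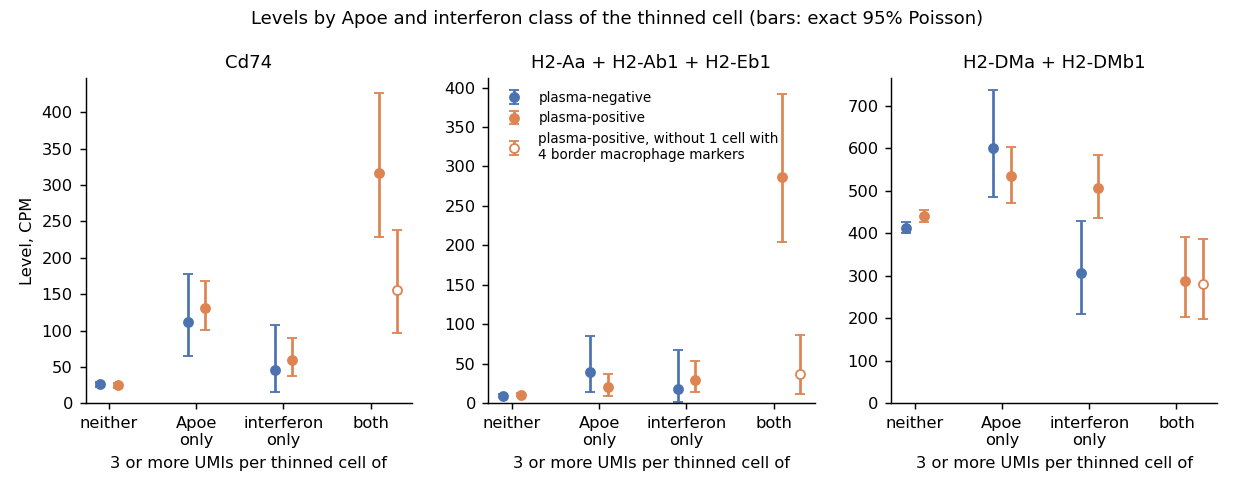
Level in CPM of Cd74, of the summed surface chains and of summed H2-DM in thinned cells with at least 3 UMIs of neither, Apoe only, the interferon list only, or both, with exact 95% Poisson intervals; the plasma-negative class with both, of 2 cells, is not drawn. Open circles leave out the border-marker cell, which takes the surface chains from 287 to 37.0 CPM.

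The comparison of the sorts asked whether microglia that had taken up plasma protein carried more RNA of these genes. Of the 8 genes, 5 reached 10 CPM in at least 1 library and were compared, H2-Ab1 through its plasma-positive level alone. All 5 had a ratio of plasma-positive to plasma-negative above 1, as had 35.7% of the 8355 genes compared. None of the 5 was at least 1.5-fold higher or lower, against 0.323% and 0.0239% of all genes. Their median log2 ratio was 0.08, against -0.04 over all genes. The share of all genes above 1 depends on the scaling, at 49.96% with edgeR's TMM factors and 50.65% with median-of-ratios size factors, which shift every log2 ratio by about 0.04.

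Cd74 had the largest log2 ratio of the 5, 0.34 (0.23 to 0.45). For H2-Ab1 it was 0.12 (-0.08 to 0.33), an interval that includes 0. The ratio itself was 1.06 (1.03 to 1.09) for H2-DMa, 1.04 (0.999 to 1.08) for H2-DMb1 and 1.04 (0.975 to 1.11) for H2-Oa. Below the 10 CPM minimum, the log2 ratio was 2.33 (1.35 to 3.46) for H2-Aa and 2.48 (1.46 to 3.68) for H2-Eb1. These intervals treat UMIs as independent, although UMIs of 1 cell share that cell, so they are too narrow for genes gathered in few cells. Summed, the surface chains had a log2 ratio of 0.39 (0.20 to 0.59) and H2-DM of 0.07 (0.04 to 0.10).

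The ratios were also taken over smaller cell sets. Without the border-marker cell the log2 ratio of H2-Aa was 1.89, of H2-Eb1 2.04, of H2-Ab1 0.03, of the summed surface chains 0.23 and of Cd74 0.30. Without the 6 and 18 cells with at least 2 surface chain genes, the summed surface chains were at 9.74 and 9.84 CPM, a log2 ratio of 0.015. The log2 ratio was then -0.11 for H2-Ab1, 2.595 for H2-Aa and 1.97 for H2-Eb1. Without the 78 and 128 cells with 3 or more Cd74 UMIs, the log2 ratio was 1.46 for H2-Aa, 0.90 for H2-Eb1, -0.16 for H2-Ab1 and 0.16 for Cd74. These 2 sets leave out cells by the counts that are compared, and more of them in the plasma-positive library, so the changed ratios follow from the choice and show only how many UMIs those cells held. Among the 6575 plasma-negative and 4807 plasma-positive cells with 0 Apoe UMIs and at most 1 UMI of the interferon list, Cd74 turned from higher to lower, at 19.4 and 17.1 CPM, a log2 ratio of -0.18. In the same cells the summed surface chains, most of whose UMIs are of H2-Ab1, were at 9.65 and 9.58 CPM, a log2 ratio of -0.011. H2-Ab1 alone had a log2 ratio of -0.097 there. H2-Aa and H2-Eb1 each had a log2 ratio of 1.91, at 0.0985 and 0.371 CPM of 20311003 and 16180380 UMIs. That is only a few UMIs of each gene per library, no interval was taken, and nothing is read from these ratios. H2-DM kept a log2 ratio between 0.07 and 0.09 in each of these cell sets.

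**Figure D5:**
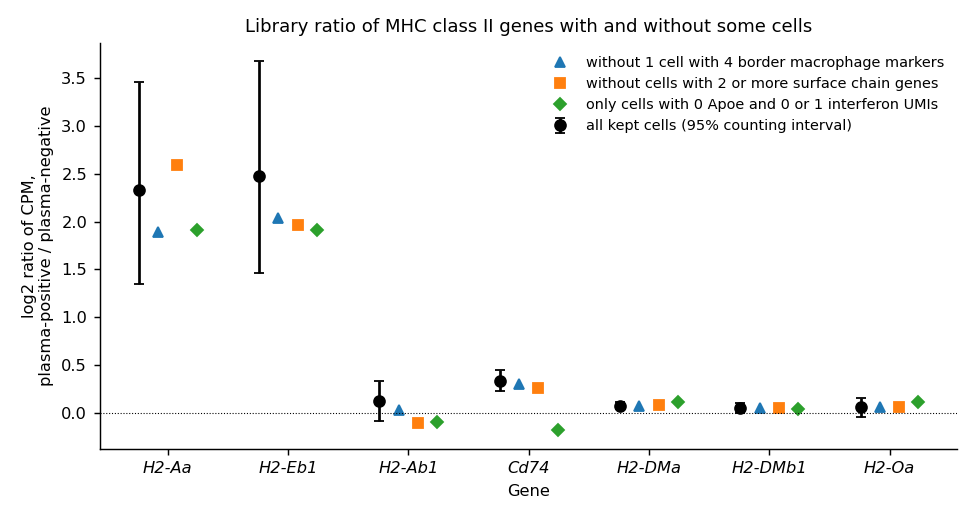
Log2 ratio of plasma-positive to plasma-negative CPM for 7 genes over all kept cells (black, 95% counting interval) and in 3 smaller cell sets (coloured, no interval). H2-Aa and H2-Eb1 lie near 2 or above in the sets drawn, but rest on few UMIs there. Cd74 goes from 0.34 to -0.18 in cells with 0 Apoe and at most 1 interferon UMI, and H2-DMa, H2-DMb1 and H2-Oa stay near 0.

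Other genes of the pathway were taken from lists by function, to be read beside all 8355 genes compared, of which 35.7% were higher, with a median log2 ratio of -0.04. Of all these genes, 0.323% were at least 1.5-fold higher and 0.0239% at least 1.5-fold lower. Of 8 processing and loading genes compared, 7 were higher and 1 lower in the plasma-positive library, none at 1.5-fold, with a median log2 ratio of 0.05. Ctss, the protease that trims the invariant chain, was at 7650 and 8573 CPM, a log2 ratio of 0.16 (0.16 to 0.17). Sppl2a, which cleaves the remaining membrane stub of the invariant chain, was at 298.4 and 298.3 CPM. Of the 10 promoter regulators, 2 were higher and 8 lower, none at 1.5-fold, with a median of -0.06, which is near the split and the median of all genes. Rfx5, an X box factor, was at 14.9 and 13.1 CPM, and Nfya, a Y box factor, was at 65.4 and 61.7 CPM. The transcripts of these factors were thus present in both libraries, in contrast to Ciita at 0 and 4 UMIs.

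Of the 5 interferon gamma signalling genes compared, 2 were higher and 3 lower, with a median of -0.03. Among them, Ifngr1, a receptor chain, was at 1009 and 954 CPM. Of 4 traffic and turnover genes, 3 were higher and 1 lower, with a median of 0.01, and the lower one was March1, a ubiquitin ligase that removes MHC class II from the surface, at 254 and 237 CPM. Of the costimulation genes, Cd86 was at 238 and 232 CPM and Cd80 at 18.7 and 17.4 CPM, both lower, and Cd40 had 18 and 29 UMIs. The type I interferon list differed from these lists in size. Of its compared genes, 12 of 12 were higher, against 35.7% of all genes. At least 1.5-fold higher were 10 of them, against 0.323% of all genes, and the median of the list was 1.35. That list was chosen with its difference between these libraries known.

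The genes whose counts followed each sum most closely over thinned cells were ranked by the lower of the 2 libraries' Pearson correlations, as a description over 9064 and 9759 cells of equal depth. For summed H2-DM the leading genes were Cst3, a cathepsin inhibitor (0.097), the complement genes C1qb (0.083), C1qc (0.062) and C1qa (0.055), and Ctss (0.057), where the 99th percentile over all genes was 0.022. Itm2b, Fcer1g, Rps29, Tmsb4x and Fau completed the 10. All are abundant genes, and the correlations are weak. For the summed surface chains no gene exceeded 0.027, and no likeness is read from that.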

How the data were processed

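Per the file headers, the deposited matrices hold raw counts (UMIs of each gene in each cell) and come from Cell Ranger 6.1.2, whereas the submitters' processing notes name Cell Ranger 3.0.1. Genome build, annotation, strand use and cell calling settings were not given in the sources used here. Cell barcodes were not used, so barcodes shared between libraries were not counted. Cells with at least 500 UMIs, 300 genes and at most 10% mitochondrial UMIs were kept. Counts were summed per library as CPM, with exact Poisson intervals, exact conditional binomial intervals for ratios and Clopper-Pearson intervals for shares. UMIs are molecules, and intervals do not cover variation among mice, sorts or preparations. With 1 library per group no test was run. Doublets were kept: Scrublet (scanpy 1.11.5) called 0 cells at its automatic threshold and had not worked, so removing the 778 and 859 highest scores was an alternative. The even-spread share is the mean over cells of 1 minus exp(-pn), where p is the gene's share of the library and n the cell's UMIs. The scripts were tested on simulated data. The 8 genes and all lists were chosen with earlier results of these data known, and the promoter motifs after the promoters were seen. Named genes are the 8 genes, members of the listed pathways and the 10 most alike genes per sum. Some cell sets, among them those without the border-marker cell, were added after seeing the data. H2-Ea-ps and Ifi30 were not analysed here. Tools were Python 3.11.15, numpy 2.4.6, scipy 1.17.1, pandas 2.3.3 and, for TMM factors, edgeR 4.0.16.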

Additional observations from a re-analysis of the deposited data

How the results depend on the processing

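Of 373 recomputed values, 270 moved by less than their counting interval (for counts, less than 1.5 times), and 103 moved further. Among these, 8 log2 ratios changed direction, 3 of the summed surface chains, 1 of Cd74 and 4 of H2-Ab1. Of these 373, 100 came from cell sets chosen after seeing the data. The log2 ratio of the summed surface chains, 0.39 over all kept cells, was -0.032 without the 1% of cells with most surface chain and Cd74 UMIs, -0.072 without cells of 3 or more Cd74 UMIs, -0.011 in cells with 0 Apoe and at most 1 interferon UMI, 0.015 without cells of at least 2 surface chain genes and 0.61 with each cell thinned to 1000 UMIs. Cd74, at 0.34, was at -0.18 in cells with 0 Apoe and at most 1 interferon UMI and at 0.16 without cells of 3 or more Cd74 UMIs. H2-DM, at 0.07, was at 0.11 with TMM factors, 0.11 with median-of-ratios factors and 0.10 thinned. The 27 genes at least 1.5-fold higher and 2 lower became 8 and 1 in cells with 0 Apoe and at most 1 interferon UMI, 5 and 0 at a minimum of 50 CPM, and 1450 and 1035 with no minimum. The count of lower genes was 1 with TMM factors, 1 with median-of-ratios factors and 25 thinned. Cells with a surface chain UMI, 0.971% and 1.15% thinned to 1000 UMIs, were 1.90% and 1.95% at 2000 and 3.23% and 3.87% without thinning. For H2-DM, 32.6% and 35.2% became 54.5% and 56.1% at 2000 and 66.3% and 73.3% without thinning. H2-Ab1, at 0.12 with an interval that includes 0, was between -0.16 and -0.097 in the 4 cell sets that turned it, and H2-Eb1, at 2.48, was at 0.90 without cells of 3 or more Cd74 UMIs. The shares move with depth by construction, and the ratios change by construction where cells are left out by their surface chain or Cd74 counts; the cause of the other moves was not tested. H2-Aa, H2-Eb1 and Ciita are limited by depth. No paired analysis was possible because the sorts gave 1 library each and no test was run, and no replicate could be left out.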

Other observations

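MHC class I genes, which present peptides made inside the cell, were also higher in the plasma-positive library. They were named after their values were seen. H2-D1 was at 462 and 581 CPM, a log2 ratio of 0.33 (0.30 to 0.36), and H2-K1 at 326 and 378 CPM, a log2 ratio of 0.22 (0.18 to 0.25). B2m, the light chain of class I molecules, was at 1396 and 1610 CPM, and Psmb9, an interferon-inducible proteasome subunit, at 74.1 and 82.7 CPM. Each of these genes was more abundant than Cd74 in both libraries.

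With cells ranked by depth into 5 equal bins, summed H2-DM lay between 378 and 455 CPM in the plasma-negative and between 404 and 469 CPM in the plasma-positive bins. Cd74 lay between 18.2 and 35.2 CPM and between 29.6 and 44.8 CPM, with the deepest bin highest in both libraries. In thinned cells with 0 UMIs of the 12 cell cycle genes, Cd74 was at 26.7 and 35.8 CPM. In cells with 1 to 2 such UMIs the levels were 40.0 CPM (26.6 to 57.8) and 30.0 CPM (19.4 to 44.3), whose intervals include the levels of the cells with 0.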
